A study of Sus scrofa with 8 samples.

Results

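Besides annotated genes, the table of counts from these pig hearts holds loci that were transcribed but are marked there as unannotated. Members were chosen by identifier and by total count: rows marked as unannotated whose counts, summed over all 8 libraries, reached 200 or more. There were 161 such loci among 655 unannotated loci and 31014 rows in all. Because the total chose them, their levels are a description. The total sums both groups, so a locus with reads in 1 group only could pass through that group alone, as 2 members did. Other members had few reads in 1 group and met the minimum mainly through the other, so their calls are not independent of that choice. The totals just inside the minimum were 201, 210 and 212 counts, and those just outside were 196, 195 and 192. The loci have no gene names, so each is called here by the protein its description resembles, or else by the nearest annotated gene.

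RNA was sequenced from heart tissue of miniature pigs labelled WT, in 3 samples given vehicle and 5 samples given doxorubicin, an anthracycline cancer drug known to damage the heart. The title of the series places the experiment in the study of ERRα, a nuclear receptor that controls mitochondrial genes, in anthracycline cardiotoxicity. The sources used here do not give the dose, the schedule, or the age and sex of the pigs. Nothing in the labels ties each sample to an animal of its own, so p-values reflect only the spread between these samples. Library totals lay between 16105242 and 18267178 counts. The library doxorubicin 5 differed most from its group: its mean correlation with the other 4 was 0.912, whereas doxorubicin 1 to 4 reached 0.941 to 0.956 and vehicle 0.974 to 0.977. Results that turn on it are given with and without it.

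Genome annotation is built from known transcripts and predictions, and reads that map outside it can be gathered into further transcript models. Such models may be missing exons of a neighbouring gene, genes that the annotation lacks, long noncoding RNAs, transcripts that start in the opposite direction from a shared promoter, mobile elements, or nuclear copies of mitochondrial DNA. A match to a known protein in the description of a locus names the protein it resembles, not a gene that has been shown to be there.

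The loci lay close to annotated genes. Coordinates are those of the deposited table, which match the pig assembly Sscrofa11.1. None of the 161 overlapped an annotated row, and the median distance to the nearest annotated row was 950 bases. Of the 161 loci, 63 lay within 5 kb of an annotated row on the opposite strand, 50 within 5 kb of an annotated row on the same strand, and 48 farther away. At the shortest distances the opposite strand prevailed: 41 loci lay within 100 bases of an annotated row, and 36 of these were on its opposite strand. Examples are a locus 8 bases past the end of GNA12 and a HYPK-like locus 11 bases before the start of SERINC4. Among the 63 loci on the opposite strand, 40 lay before the start of the annotated row and 23 after its end. Whether counting used the strand is not stated, so the strand of a locus is the one written in the table. The nearest annotated row was protein-coding for 136 of the 161.

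**Figure D1:**
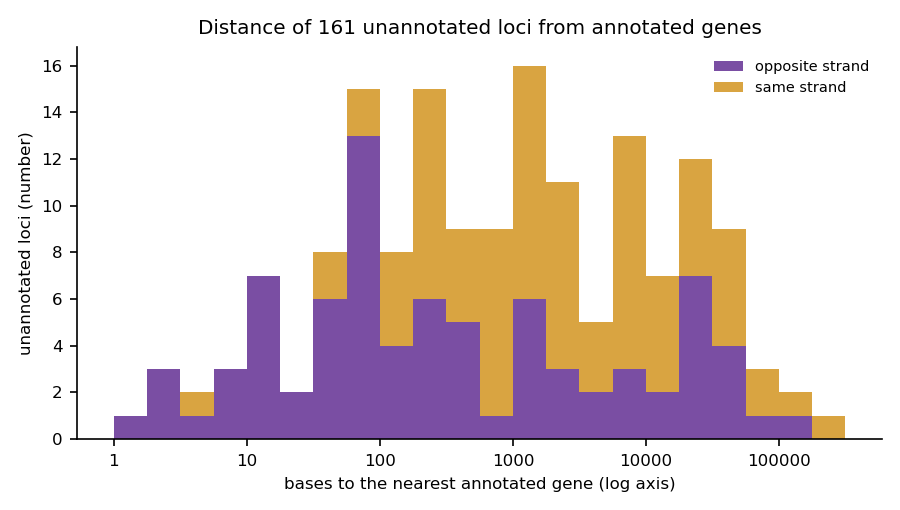
Number of the 161 unannotated loci (vertical axis) by the distance in bases to the nearest annotated row (horizontal axis, log scale), coloured by whether that row lies on the same or the opposite strand. Of the 41 loci within 100 bases, 36 are on the opposite strand.

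In 129 of the 161 loci the span on the chromosome was longer than the transcript length, as in a spliced transcript, and in 32 it was not. The median transcript length was 2120 bases, against 3681 bases for annotated long noncoding RNAs and 3785 bases for protein-coding genes with the same minimum of 200 counts. The longest transcript, 13415 bases, resembled RNF213, and the widest span, 527589 bases, began past the end of UTRN. Chromosomes 1 and 6 carried 17 loci each and chromosome 12 carried 16. Unplaced sequences carried 3, mitochondrial DNA 1 and chromosome Y 1. In 2 places neighbouring loci formed a chain, each less than 100 kb from the next. A chain of 4 loci lay on chromosome 12 (2086953 to 2211995), and a chain of 3 on chromosome 14 (16378835 to 16554813).

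Most loci were modest in level, and a single one dominated the reads. Levels are given in CPM, counts scaled to the size of the library. Per kilobase of transcript, the median of the mean level over the 8 libraries was 2.27 CPM for the 161 loci, 1.30 CPM for annotated long noncoding RNAs and 5.20 CPM for protein-coding genes. The mean level was 10 CPM or more in 35 of the 161 loci, and 155 had reads in all 8 libraries. The COX1-like locus took 88.9% of all counts on the 161 loci and ranked 4 by total count among all rows. Per kilobase it stood at 13807 CPM, followed by a locus at the start of mitochondrial DNA at 224 CPM, a TAR1-like locus at 144 CPM and a locus by FITM2 at 66.6 CPM. The median coefficient of variation within a group was 21.7% in vehicle and 33.8% after doxorubicin, near the 22% and 35.4% of annotated long noncoding RNAs and above the 14.6% and 23.2% of protein-coding genes.

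The deposited descriptions liken 29 of the 161 loci to a protein and 11 to a mobile element, and leave 121 without a description. For 27 of the 29 the described protein could be matched to a gene symbol. For 20 of these 27 loci, with 18 symbols, no annotated row under that symbol was among those analysed here. They included loci like NONO, RNF213, CTDNEP1, RNF31, HYPK, NAGLU, ANKRD2 and BBS7. The RefSeq table of the same assembly lists NR4A1 itself, typed as a pseudogene, at chromosome 5, 17403088 to 17407918. That entry is inside the span of the NR4A1-like locus (17391754 to 17408519). The RefSeq table also lists the pseudogenes SLA-11 and MIC-1 inside the spans of 2 loci on chromosome 7, like a class I histocompatibility antigen and like LINE-1. These 3 entries had no row among those analysed here.

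Doxorubicin against vehicle called 43 of the 161 loci (26.7%), close to the 24.9% called among all 14938 rows tested. Levels of 18 loci were higher, which is 11.2% against 13.6% of all rows tested, and 25 were lower, which is 15.5% against 11.3%. The other 118 did not pass an adjusted p of 0.05. Among the 25 lower loci is the one by KCNV2, which met the minimum total through vehicle alone. The median log2 fold change was −0.09 for the 161 loci and 0.02 for all rows tested. An unadjusted p under 0.05 was reached by 77 loci (47.8%), against 40.8% of all rows tested. A call with at least a 2-fold change was made for 33 loci (20.5%), against 12.6%. The groups did not overlap in 65 loci, 27 with higher and 38 with lower levels after doxorubicin, and in 34.9% of all rows tested (17.1% higher and 17.8% lower). By description, 6 of 29 loci like a protein were higher and 3 lower, 0 of 11 like a mobile element were higher and 2 lower, and 12 of 121 without a description were higher and 20 lower. Among annotated long noncoding RNAs 28 of 453 were higher and 65 lower.

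The counts of calls moved with single libraries and with scaling, for the loci and for all rows tested. Without doxorubicin 5 there were 23 higher and 33 lower loci (35.4%, against 32.3% of all rows tested). Without vehicle 1 there were 9 and 8 (10.6% against 4.19%), without vehicle 2 there were 12 and 17 (18% against 12.7%), and without vehicle 3 there were 7 and 10 (10.6% against 4.61%). With scaling by library size only, 38 loci were higher (23.6%, against 27.4% of all rows tested) and 15 lower (9.32% against 3.34%), and the median log2 fold change of all rows tested moved from 0.02 to 0.38. All 18 higher calls held there, and 10 of the 25 lower calls were lost. Of the 43 called loci, 14 passed whichever library was left out, 6 with higher and 8 with lower levels. They are the loci like ANKRD2, NR4A1, HYPK, NAGLU and GEMIN2 and the one by GNA12, all higher, and 8 lower ones: Tigger-like, those by KCNV2, SLC12A7, UTRN, SLC4A1AP and RFTN1, and 2 distant ones on chromosomes 4 and 8. The locus by KCNV2 met the minimum total through vehicle alone, so its place in these counts of calls is a description only. The ANKRD2-like and GEMIN2-like loci and the one by GNA12 met it mainly through the doxorubicin libraries. Their calls are therefore not independent of that choice, whichever library is left out.

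In bulk tissue, fewer cells of a type and less RNA per cell cannot be told apart. The summed level of 9 cardiomyocyte markers found (of 10 listed) ran from 64473 to 69388 CPM in vehicle and from 35586 to 64254 CPM after doxorubicin, and 2 of the 9 were called lower. Summed levels of 7 fibroblast markers ran from 1228 to 1435 CPM and from 2460 to 31363 CPM, with 4 called higher and 1 lower. Those of 6 macrophage markers ran from 109 to 149 CPM and from 167 to 449 CPM, with 4 called higher. Summed levels of 4 T cell markers ran from 3.50 to 6.31 CPM and from 10.9 to 23.3 CPM, with all 4 called higher. Those of 4 proliferation markers ran from 5.43 to 8.60 CPM and from 14.2 to 33.2 CPM, with 3 called higher. Those of 6 smooth muscle and pericyte markers ran from 519 to 1160 CPM and from 574 to 4360 CPM, with 2 called higher and 1 lower. Of 4 adipocyte markers 2 were tested and 1 was called lower. No endothelial, B and plasma cell, red cell or Schwann cell marker was called. Only 1 of 4 B and plasma cell markers and 2 of the 3 red cell markers found were tested, so the others could not be called. Summed levels of the B and plasma cell markers ran from 10.3 to 12.5 CPM in vehicle and from 4.82 to 138 CPM after doxorubicin. No marker found was at 0 in all libraries. The part of these shifts in the changes of the unannotated loci was not tested.

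**Figure D2:**
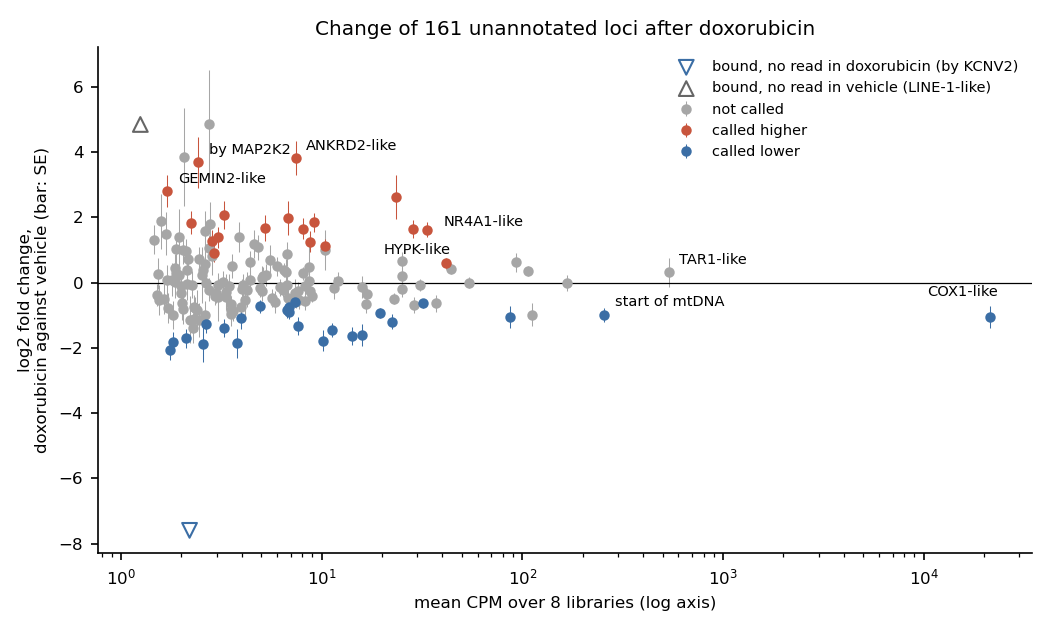
Log2 fold change of doxorubicin against vehicle (vertical axis, bars are the SE) by the mean level over the 8 libraries in CPM (horizontal axis, log scale) for the 161 unannotated loci, with 18 called higher in red and 25 called lower in blue. The open triangles are bounds for the lower locus by KCNV2 and for a LINE-1-like locus that was not called, which had no read in 1 of the groups.

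The locus with most reads resembled mitochondrial DNA and fell with it. The COX1-like locus lies on chromosome 9 (4696569 to 4702192, transcript length 1542 bases). It is described as like subunit 1 of cytochrome c oxidase, the last complex of the respiratory chain, with further domains of cytochrome c oxidase subunit II and of ATP synthase protein 8. Its level was 32259, 30448 and 31770 CPM in the vehicle libraries and 19151, 15264, 13554, 20405 and 7478 CPM in the doxorubicin libraries. Every doxorubicin library was below every vehicle library, and doxorubicin 5 was the lowest. On the log2 scale the fold change was −1.05 (SE 0.32, adjusted p = 0.0405). The call was lost without any of the 3 vehicle libraries (adjusted p = 0.124, 0.097 and 0.123 without vehicle 1, 2 and 3), without doxorubicin 2 (0.0774) or 3 (0.0731), with library size only (log2 fold change −0.71, adjusted p = 0.107) and with no filter on low counts (0.0621). The mitochondrial gene COX1 itself went from 133377 ± 1498 CPM (SD, n = 3) to 47692 ± 10286 CPM (SD, n = 5), a change of −1.48 on the log2 scale (SE 0.26, adjusted p = 0.00809). How reads that match both places were assigned is not stated, so reads of the nuclear locus and of mitochondrial DNA cannot be told apart. An unannotated row at the same position on the other strand had 0 counts.

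Set beside COX1, the locus kept a near constant ratio in vehicle and spread out after doxorubicin. For every 100 counts on COX1 there were 24.0, 23.1 and 23.7 counts on the COX1-like locus in the vehicle libraries. In doxorubicin 1 to 4 there were 31.9, 34.0, 33.6 and 35.9, all above vehicle, and in doxorubicin 5 there were 20.5, below vehicle. The group means of 23.6 ± 0.448 (SD, n = 3) and 31.2 ± 6.13 (SD, n = 5) gave p = 0.143 in an exact two-sided permutation test (adjusted p = 0.167 over 7 measures of this kind). Without doxorubicin 5 the doxorubicin mean was 33.9 ± 1.66 (SD, n = 4) and the groups did not overlap (exact permutation p = 0.0571, the smallest possible there). The smallest p that 3 against 5 libraries allow is 0.0357, and none of the 7 measures passed 0.05 after adjustment. As a share of all counts, the locus went from 2.70% ± 0.126 to 1.65% ± 0.526 (exact permutation p = 0.0357, adjusted p = 0.0625), and to 1.86% ± 0.284 without doxorubicin 5.

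All 161 loci together followed the COX1-like locus, as they must, since it held 88.9% of their counts. Their share of all counts was 3.0%, 2.78% and 2.98% in vehicle and 2.24%, 1.90%, 1.89%, 2.46% and 1.12% after doxorubicin, so the groups did not overlap and doxorubicin 5 was again the lowest. The difference of the means was −1.0 percentage points (exact permutation p = 0.0357, adjusted p = 0.0625), and −0.80 without doxorubicin 5 (exact permutation p = 0.0571, the smallest possible there). Over the total without genes of mitochondrial DNA the difference was −1.70 percentage points, and over the total without the 20 most abundant rows it was −1.95. Without the COX1-like locus the share was 0.223% ± 0.0154 in vehicle and 0.267% ± 0.0289 after doxorubicin (exact permutation p = 0.107, adjusted p = 0.15). That difference of 0.0439 percentage points shrank to 0.00676 over the total without genes of mitochondrial DNA (exact permutation p = 0.679), and 10 of the 13 protein genes of mitochondrial DNA were called lower. With the 3 most abundant loci left out, the remaining ones held 0.154%, 0.149% and 0.152% of all counts in vehicle and 0.179%, 0.178%, 0.204%, 0.176% and 0.175% after doxorubicin (exact permutation p = 0.0357, adjusted p = 0.0625). This last share was not computed over the total without genes of mitochondrial DNA. The part of the fall of those genes in its rise was therefore not tested.

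**Figure D3:**
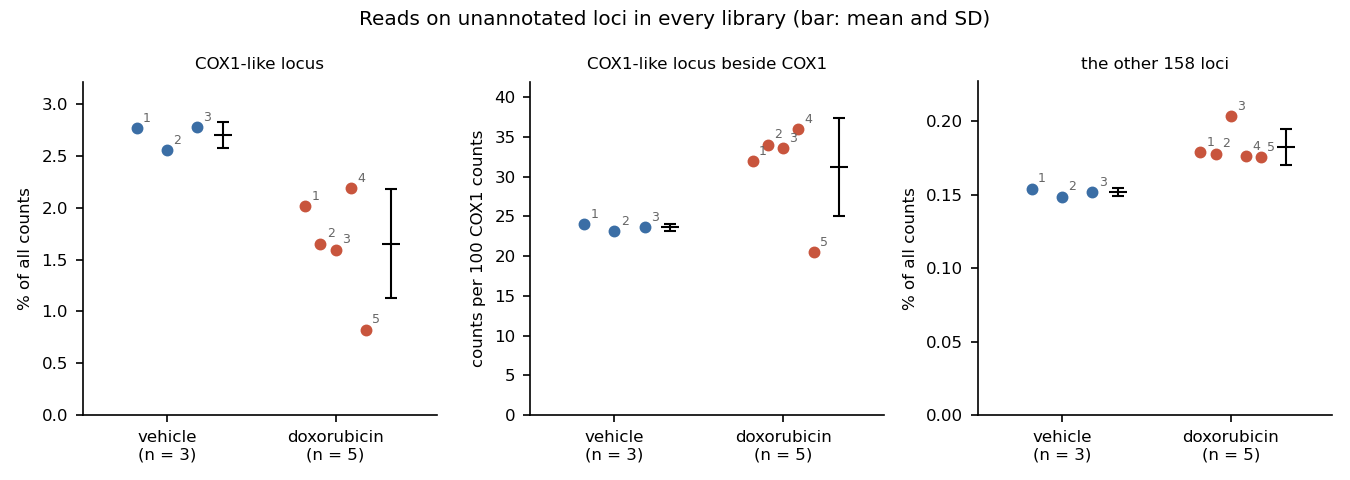
Share of all counts on the COX1-like locus (left, %), counts on it per 100 counts on COX1 (middle), and share of all counts on the loci other than the 3 most abundant (right, %). Points are libraries with their numbers, bars are mean and SD of 3 vehicle and 5 doxorubicin libraries. Doxorubicin 5 is the lowest library in the left and middle panels, at 0.823% and 20.5. All counts include those on mitochondrial DNA, whose genes were mostly lower after doxorubicin.

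The others of the 3 most abundant loci lay on mitochondrial DNA and after ribosomal RNA genes. The locus at the start of mitochondrial DNA covers bases 1 to 1144, before the first annotated row at 1176. Its level was 364.99, 401 and 346 CPM in vehicle and 227, 231, 148, 193 and 139 CPM after doxorubicin, with no overlap. The log2 fold change was −0.98 (SE 0.21, adjusted p = 0.0129), and the call was lost without vehicle 1 (adjusted p = 0.0577) and without vehicle 3 (0.0564). The median log2 fold change of the 13 protein genes of mitochondrial DNA was −1.27. Per 100 counts on the other rows of mitochondrial DNA, this locus had 0.126 ± 0.0111 counts in vehicle and 0.163 ± 0.0276 after doxorubicin (exact permutation p = 0.0357, adjusted p = 0.0625).

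The TAR1-like locus lies on an unplaced sequence at 48156 to 51932, after the ribosomal RNA genes RN18S and RN5-8S. TAR1 is a protein named for a transcript antisense to ribosomal RNA. As written in the table, however, the locus is on the same strand as RN18S and RN5-8S, not antisense to them. Whether its reads come from ribosomal RNA was not tested. The level was 556, 575 and 262 CPM in vehicle and 217, 425, 593, 721 and 937 CPM after doxorubicin, and the groups overlapped widely. The log2 fold change was 0.32 (SE 0.44, adjusted p = 0.62). Per 100 counts on RN18S there were 185 ± 41.2 counts on this locus in vehicle and 185 ± 39.0 after doxorubicin (exact permutation p = 1).

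Of the 29 loci like a known protein, 6 were higher after doxorubicin (20.7%, against 13.6% of all rows tested). The largest change belonged to the ANKRD2-like locus (chromosome 14, 108944349 to 108958391). ANKRD2 is an ankyrin repeat protein of striated muscle known to respond to stretch. The level was 1.07, 1.04 and 0.284 CPM in vehicle and 8.73, 11.9, 18, 5.5 and 12.8 CPM after doxorubicin. All 5 doxorubicin libraries were above all 3 vehicle libraries. The rise was 14.1-fold (log2 fold change 3.82, SE 0.52, adjusted p = 0.00525). The vehicle libraries had 15, 15 and 4 counts, so it met the minimum total mainly through the doxorubicin libraries. The locus ends 421 bases before the start of HOGA1, a mitochondrial aldolase on the same strand, which measured 38.9 ± 7.53 CPM (SD, n = 3) and 34.4 ± 2.94 CPM (SD, n = 5) and was not called (log2 fold change −0.18, adjusted p = 0.418). Summed levels of 6 skeletal muscle markers were 0 CPM in vehicle and 0.546 to 4.50 CPM after doxorubicin. Only 1 of the 6 was tested, and it was called higher. The part of that shift in the rise of the ANKRD2-like locus was not tested.

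The NR4A1-like locus (chromosome 5, 17391754 to 17408519) had the next smallest p among the higher loci. NR4A1 is an orphan nuclear receptor switched on early after many stimuli. The level was 14.5, 17.0 and 12.2 CPM in vehicle and 55.0, 47.3, 44.4, 49.0 and 28 CPM after doxorubicin. Doxorubicin 5 was the lowest of its group and still above vehicle. The rise was 3.07-fold (log2 fold change 1.62, SE 0.23, adjusted p = 0.00546).

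The HYPK-like locus (chromosome 1, 127758541 to 127760363) was higher as well. HYPK is a partner of the complex that acetylates the starts of proteins. Its locus had 10.1, 16.4 and 9.88 CPM in vehicle and 38.9, 40.6, 31.4, 25.6 and 54.4 CPM after doxorubicin. The groups did not overlap, and the rise was 3.14-fold (log2 fold change 1.65, SE 0.28, adjusted p = 0.00769). SERINC4, of the serine incorporator family, starts 11 bases away on the opposite strand. It measured 40.6 ± 2.26 CPM in vehicle (SD, n = 3) and 31.4 ± 1.95 CPM with doxorubicin (SD, n = 5) and did not pass (log2 fold change −0.37, SE 0.12, adjusted p = 0.0526).

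The NAGLU-like locus (chromosome 12, 20271537 to 20279594) resembles a lysosomal enzyme that breaks down heparan sulfate. Its level was 4.93, 5.83 and 7.25 CPM in vehicle and 13.9, 10.9, 15.7, 12.6 and 12.5 CPM after doxorubicin. The doxorubicin libraries lay close together and above vehicle, a 2.18-fold rise (log2 fold change 1.12, SE 0.20, adjusted p = 0.00849). The GEMIN2-like locus (chromosome 7, 61088648 to 61097218) resembles a member of the complex that assembles spliceosomal particles. It had 0.214, 0.347 and 0.498 CPM in vehicle and 3.22, 2.58, 1.35, 3.22 and 2.20 CPM after doxorubicin, again with no overlap (log2 fold change 2.81, SE 0.48, adjusted p = 0.0077). The vehicle libraries had 3, 5 and 7 counts, so this locus met the minimum total mainly through the doxorubicin libraries. The annotated GEMIN2 on chromosome 1 measured 20.5 ± 3.58 CPM (SD, n = 3) and 14.3 ± 2.33 CPM (SD, n = 5) and did not pass (log2 fold change −0.53, SE 0.18, adjusted p = 0.0599).

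The last of the 6 resembles TES, a focal adhesion protein, and lies on an unplaced sequence. It went from 2.38 ± 1.81 CPM (SD, n = 3) to 9.49 ± 3.11 CPM (SD, n = 5), with an adjusted p of 0.0231. It is outside the naming rule and was named after its values were seen, to complete the 6. Its call was lost with 1 library left out (largest adjusted p = 0.099). The vehicle libraries had 30, 62 and 10 counts, so it met the minimum total mainly through the doxorubicin libraries. TES itself, on chromosome 18, was not called (log2 fold change 0.59, adjusted p = 0.387).

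**Figure D4:**
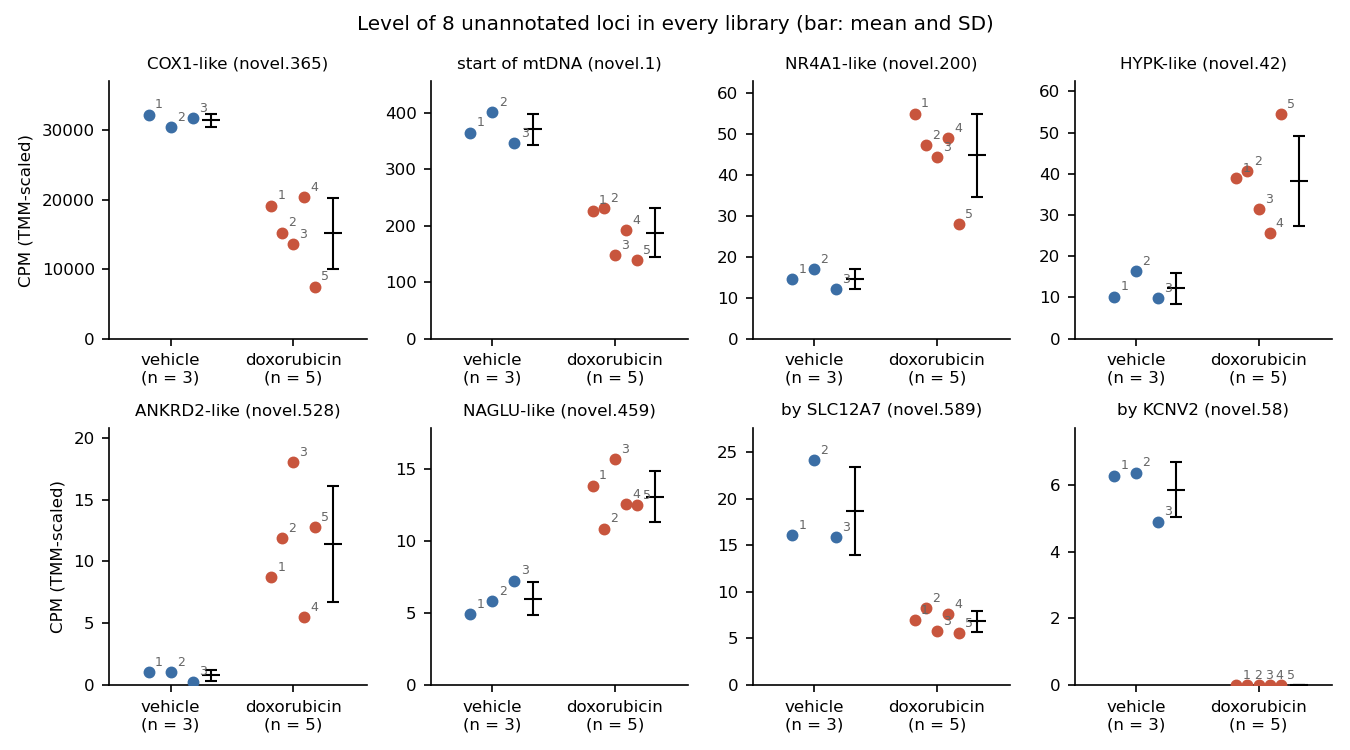
Levels in CPM (vertical axes, each from 0) of 8 unannotated loci in every library. Points are libraries with their numbers and bars are mean and SD of 3 vehicle and 5 doxorubicin libraries. All 8 were picked from the called loci, so the lack of overlap in every panel reflects that choice. Over all rows tested the groups did not overlap in 34.9%. The locus by KCNV2 is at 0 in all 5 doxorubicin libraries.

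Loci without a description were higher beside genes of several kinds. The locus by GNA12 (chromosome 3, 1999234 to 2002486) lies on the opposite strand past the end of that gene, which codes for a G protein subunit that signals to the cytoskeleton. It had 3.57, 4.37 and 2.49 CPM in vehicle and 12.3, 10.7, 17.6, 9.29 and 12.7 CPM after doxorubicin. No doxorubicin library reached down to vehicle, and the rise was 3.59-fold (log2 fold change 1.84, SE 0.28, adjusted p = 0.00598). The vehicle libraries had 50, 63 and 35 counts, so this locus met the minimum total mainly through the doxorubicin libraries. GNA12 was higher too, from 46.9 ± 5.67 CPM (SD, n = 3) to 74.0 ± 11.3 CPM (SD, n = 5), by 0.66 on the log2 scale (adjusted p = 0.0225).

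In 2 further cases locus and gene were higher together. The first lies 1683 bases past the end of EMC10, a subunit of a complex that inserts membrane proteins, and the second lies 326 bases past the end of OGFOD3, an oxygenase. The locus by EMC10 (chromosome 6, 55323934 to 55332321) went from 3.45 ± 1.28 CPM to 10.9 ± 2.69 CPM (adjusted p = 0.00977, and 0.0509 without vehicle 1), and EMC10 from 47.7 ± 14.2 CPM to 106 ± 25.7 CPM (adjusted p = 0.0131). The locus by OGFOD3 (chromosome 12, 688521 to 690731) went from 1.08 ± 0.543 CPM to 4.59 ± 1.45 CPM (adjusted p = 0.0123, and 0.0552 without vehicle 3), and OGFOD3 from 4.58 ± 1.40 CPM to 12.6 ± 1.16 CPM (adjusted p = 0.00598). The vehicle libraries had 52, 66 and 29 counts on the locus by EMC10 and 22, 17 and 7 on the one by OGFOD3. Both loci met the minimum total mainly through the doxorubicin libraries.

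Beside SF1, a splicing factor, and MAP2K2, a kinase of the MAP kinase cascade, the locus was higher and the gene was not called. The locus by SF1 (chromosome 2, 7385905 to 7391245) went from 0.845 ± 0.240 CPM to 3.05 ± 0.718 CPM (adjusted p = 0.0102), a call lost without vehicle 1 (0.0542) and without vehicle 3 (0.055). The vehicle libraries had 9, 16 and 11 counts, so this locus met the minimum total mainly through the doxorubicin libraries. SF1 measured 73.4 ± 4.82 CPM and 81.8 ± 8.14 CPM (adjusted p = 0.426). The locus by MAP2K2 (chromosome 2, 74600150 to 74615469) had 0, 0.416 and 0.427 CPM in vehicle and 2.62, 3.44, 6.82, 1.56 and 4.15 CPM after doxorubicin (adjusted p = 0.0127, and 0.0559 without vehicle 3). Its fitted log2 fold change of 3.69 (SE 0.78) rests on very few vehicle reads (0, 6 and 6 counts). It met the minimum total mainly through the doxorubicin libraries. MAP2K2, 11270 bases away, measured 112 ± 23.1 CPM and 131 ± 16.3 CPM (adjusted p = 0.391).

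The sharpest contrast between the groups was a locus with reads in vehicle only. The locus by KCNV2 (chromosome 1, 219089978 to 219097831, transcript length 3298 bases) had 88, 92 and 69 counts in the vehicle libraries and 0 counts in each of the 5 doxorubicin libraries. Against a floor of 3 counts over the doxorubicin libraries together, it was at least 193-fold lower, where the floor covers counting error only. All of its 249 counts came from vehicle, so it met the minimum total through that group alone, and it was singled out for this pattern. The values are therefore a description, with no test. It lies 2027 bases past the end of KCNV2, a potassium channel subunit, which had 1 count in all 8 libraries. The genes around it were not called. For VLDLR, a lipoprotein receptor, the log2 fold change was 0.05 (SE 0.15, adjusted p = 0.827), and for PUM3, an RNA-binding protein, −0.01 (SE 0.27, adjusted p = 0.976).

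A similar pattern was seen in a locus on chromosome 3 (124277640 to 124280190), which had 94 counts in all and is below the minimum total. It had 26, 27 and 40 counts in vehicle and 0, 0, 1, 0 and 0 counts after doxorubicin. It too was singled out for this pattern, and no test is given. The nearest annotated gene, TRIB2, a pseudokinase 81387 bases away, was not called (log2 fold change −0.13, adjusted p = 0.651).

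The reverse pattern, with nearly all reads after doxorubicin, was seen in 3 of the unannotated loci with a total of 90 or more. A LINE-1-like locus on chromosome 6 (130130081 to 130157666), the member with the smallest total, had 0 counts in all vehicle libraries and 3, 18, 25, 0 and 155 counts after doxorubicin. Most of its reads came from doxorubicin 5 and doxorubicin 4 had none. It met the minimum total through the doxorubicin libraries alone. The other two are below the minimum total and were chosen after their values were seen. A locus on chromosome 7 (43669301 to 43674392), 9547 bases from GLYATL3, had 0, 0 and 1 counts in vehicle and 5, 30, 44, 12 and 95 counts after doxorubicin, with reads in all 5 doxorubicin libraries. A locus on chromosome 10 (28654449 to 28658982) had 0 counts in vehicle and 0, 0, 3, 0 and 111 counts after doxorubicin, nearly all of them in doxorubicin 5. As these 3 were picked for the pattern, they are described without a test.

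Apart from the locus by KCNV2, the lower locus with the smallest p was the one by SLC12A7 (chromosome 16, 79341554 to 79346793), an unspliced locus of 5240 bases. It had 16.1, 24.1 and 15.9 CPM in vehicle and 6.93, 8.23, 5.74, 7.57 and 5.6 CPM after doxorubicin. The doxorubicin libraries were close to each other and all below vehicle (log2 fold change −1.45, SE 0.21, adjusted p = 0.00547). SLC12A7, a potassium chloride cotransporter 10075 bases away, went from 251 ± 33.7 CPM (SD, n = 3) to 392 ± 75.1 CPM (SD, n = 5) and did not pass (log2 fold change 0.64, SE 0.21, adjusted p = 0.0537).

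Lower loci also lay far from any annotated row. A locus on chromosome 4 (16915761 to 17035900), 104752 bases from the nearest, had 3.64, 3.61 and 2.84 CPM in vehicle and 0.928, 0.909, 0.7, 0.830 and 0.65 CPM after doxorubicin. That was a 4.16-fold fall with no overlap (log2 fold change −2.06, SE 0.31, adjusted p = 0.00584). A locus on chromosome 8 (77017356 to 77037151), 88882 bases from the nearest annotated row, went from 18.3 ± 3.95 CPM to 5.35 ± 2.18 CPM (log2 fold change −1.77, adjusted p = 0.00852). The locus by SLC4A1AP (chromosome 3, 111493700 to 111496518) went from 3.71 ± 0.690 CPM to 1.14 ± 0.172 CPM (log2 fold change −1.70, adjusted p = 0.00771). SLC4A1AP, 7476 bases away, measured 19.7 ± 3.78 CPM and 20.9 ± 4.38 CPM and was not called.

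In 2 further cases the lower locus lay more than 5 kb from its nearest gene, and the gene was not called. The locus by UTRN (chromosome 1, 19975920 to 20503508) begins 10756 bases past the end of that gene, which codes for utrophin, a relative of dystrophin. It had 23.9, 28.2 and 21.9 CPM in vehicle and 10.8, 7.98, 5.70, 10.5 and 4.60 CPM after doxorubicin, with no overlap (log2 fold change −1.64, SE 0.28, adjusted p = 0.00756). UTRN itself had −0.11 (SE 0.33, adjusted p = 0.831). A locus on chromosome 18 (38519312 to 38582213) lies 53390 bases before the start of TBX20, a transcription factor of heart development, and was chosen after its values were seen. It went from 27.4 ± 4.41 CPM to 9.0 ± 4.13 CPM (log2 fold change −1.61, adjusted p = 0.0125), a call lost with 1 library left out (largest adjusted p = 0.0615). TBX20 stood at 139.8 ± 22.2 CPM and 128 ± 33.8 CPM (log2 fold change −0.12, adjusted p = 0.725).

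The locus by RFTN1 (chromosome 13, 3675098 to 3679661) lies 26 bases from that gene of the lipid raft protein raftlin, on the opposite strand. It had 3.21, 3.33 and 3.34 CPM in vehicle and 0.928, 1.16, 0.981, 0.934 and 0.6 CPM after doxorubicin, again without overlap (log2 fold change −1.83, SE 0.32, adjusted p = 0.00783). RFTN1 was not called (log2 fold change −0.05, SE 0.16, adjusted p = 0.838). The locus by C14H1orf198 (chromosome 14, 59553762 to 59559186) went from 12.2 ± 1.27 CPM to 4.85 ± 1.41 CPM (adjusted p = 0.0114, and 0.0577 without vehicle 1 and 0.054 without vehicle 3). C14H1orf198, 57 bases away on the opposite strand, measured 218 ± 8.90 CPM and 207 ± 28.5 CPM and was not called (adjusted p = 0.756).

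The remaining lower loci of the naming rule were less steady. The locus by LOC102157778 (chromosome 1, 51361870 to 51366233) went from 34.5 ± 5.26 CPM to 15 ± 4.18 CPM (log2 fold change −1.20, adjusted p = 0.0098, and 0.0549 without vehicle 1). The locus by LOC110260218 (chromosome 1, 40590109 to 40624286) went from 128 ± 8.96 CPM to 61.7 ± 27.8 CPM (log2 fold change −1.06, SE 0.34, adjusted p = 0.0462). With 1 library left out its call was lost without vehicle 1 (0.133), vehicle 2 (0.097), vehicle 3 (0.137), doxorubicin 1 (0.0668), doxorubicin 3 (0.0654) or doxorubicin 5 (0.0546). It was also lost with library size only (log2 fold change −0.72, adjusted p = 0.116) and with no filter on low counts (0.0619). The locus by MAP2K6, a MAP kinase kinase (chromosome 12, 10864099 to 10866572, 24873 bases past its end), went from 4.68 ± 0.845 CPM to 1.27 ± 0.933 CPM (log2 fold change −1.87, adjusted p = 0.0349). With 1 library left out its call was lost without vehicle 1 (0.0897), vehicle 2 (0.0868), vehicle 3 (0.12), doxorubicin 1 (0.052), doxorubicin 2 (0.0623) or doxorubicin 4 (0.0581), and it was lost with library size only (0.0717).

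Of the 29 loci like a known protein, 3 were lower (10.3%, against 11.3% of all rows tested): those like COX1, SCN9A and BBS7. SCN9A is a voltage-gated sodium channel, and the locus like it lies on chromosome 10 (56460544 to 56567066). It had 44.3, 40.5 and 38.3 CPM in vehicle and 29.1, 27.6, 25.5, 28.5 and 21.9 CPM after doxorubicin, so the groups did not overlap (log2 fold change −0.63, SE 0.14, adjusted p = 0.0149). Its call was lost without vehicle 1 (0.071), without vehicle 3 (0.0581) and with library size only (log2 fold change −0.27, adjusted p = 0.158). The annotated SCN9A on chromosome 15 measured 1.23 ± 0.526 CPM and 1.08 ± 1.44 CPM and was not called. The BBS7-like locus (chromosome 8, 102213452 to 102260092), named after its values were seen, resembles a protein of the complex that carries cargo to cilia. It went from 9.24 ± 2.02 CPM to 5.46 ± 0.536 CPM (adjusted p = 0.0256), and its call was lost with library size only (adjusted p = 0.156) and with 1 library left out (largest adjusted p = 0.125).

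Of the 11 mobile element loci, 2 were called lower (18.2%, against 11.3% of all rows tested) and 0 higher (against 13.6%). Neither of the 2 changed by 2-fold, and with 11 loci these shares are a description. The Tigger-like locus (chromosome 1, 145811809 to 145817048) resembles a DNA transposon and ends 136 bases before the start of CTDP1, a phosphatase of RNA polymerase II, on the same strand. It had 27.7, 26.1 and 29.0 CPM in vehicle and 17.7, 14.1, 13.4, 15.5 and 12.1 CPM after doxorubicin, and the groups stood well apart (log2 fold change −0.92, SE 0.16, adjusted p = 0.00756). CTDP1 went the other way, from 16.6 ± 0.372 CPM (SD, n = 3) to 23.6 ± 1.76 CPM (SD, n = 5), and was called higher (log2 fold change 0.50, SE 0.13, adjusted p = 0.0259). Among the 130 pairs tested, 1 pair had locus and nearest gene called in opposite directions, and it was this pair. The other called element, LINE-1-like and on chromosome Y, went from 6.55 ± 1.06 CPM to 3.95 ± 0.345 CPM (adjusted p = 0.0316). Its call was lost with library size only (adjusted p = 0.202) and with 1 library left out (largest adjusted p = 0.143).

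Several of the most abundant loci were not called. The locus like a class I histocompatibility antigen, which presents peptides to T cells (chromosome 7, 22997184 to 23015551), measured 168 ± 10.6 CPM and 167 ± 51.4 CPM (log2 fold change −0.01, SE 0.25). The locus by IMPAD1 (chromosome 4, 75213646 to 75215926) measured 54.1 ± 5.63 CPM and 53.9 ± 9.47 CPM (log2 fold change −0.01, SE 0.17). For the RNF31-like locus (chromosome 7, 75139917 to 75154201), which resembles a builder of linear ubiquitin chains, the log2 fold change was −0.07 (SE 0.19). The signs of all 3 turned under other settings.

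The NONO-like locus (chromosome X, 57289628 to 57315978) resembles an RNA-binding protein of nuclear paraspeckles. It had 82.2, 105 and 85.6 CPM in vehicle and 108, 109, 114, 114 and 136 CPM after doxorubicin, without overlap but by a small step (log2 fold change 0.35, SE 0.15, adjusted p = 0.113). The CTDNEP1-like locus (chromosome 12, 52599218 to 52606130) resembles a phosphatase of the nuclear envelope and had 36.4 ± 4.87 CPM and 49.0 ± 8.95 CPM (log2 fold change 0.43, SE 0.18, adjusted p = 0.1). ELP5, 10 bases away on the opposite strand, was called higher (log2 fold change 0.74, SE 0.19, adjusted p = 0.0214). Both loci passed with library size only (adjusted p = 0.00995 and 0.0106).

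The locus by FITM2 (chromosome 17, 46740880 to 46742646) lies 16 bases from that gene, which helps form lipid droplets. It had 169, 162 and 154 CPM in vehicle and 120, 90.8, 50.4, 115 and 34.4 CPM after doxorubicin. All doxorubicin libraries were below vehicle but spread widely (log2 fold change −0.98, SE 0.37, adjusted p = 0.075). It passed without doxorubicin 1 (adjusted p = 0.0483) or doxorubicin 5 (0.0444). For FITM2 the log2 fold change was −0.29 (SE 0.47, adjusted p = 0.671).

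The zinc finger loci like ZFP28 (chromosome 6, 60906868 to 60927036) and ZKSCAN8 (chromosome 7, 21981351 to 22001013) were not called either. Levels were 19.3 ± 1.27 CPM and 15.2 ± 2.82 CPM for the ZFP28-like locus, and 21.7 ± 4.57 CPM and 13.7 ± 3.85 CPM for the ZKSCAN8-like locus. The adjusted p of the latter was 0.0871 over all libraries and 0.0486 without doxorubicin 5. Next to the minimum total, the locus by TMEM107 (chromosome 12) had 1.77 ± 0.237 and 1.36 ± 0.279 CPM and a locus on chromosome 10 had 1.92 ± 1.16 and 1.33 ± 0.412 CPM, with overlapping groups.

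The chain on chromosome 12 holds 1 locus like ENDOV, an endonuclease that cuts at inosine, followed by 3 like RNF213, a very large ubiquitin ligase. No annotated row for either symbol was among those analysed here. The first RNF213-like locus had 77.4, 54.4 and 75.5 CPM in vehicle and 82.6, 123, 153, 116 and 58.5 CPM after doxorubicin, where doxorubicin 5 fell among the vehicle libraries. It was not called (log2 fold change 0.63, SE 0.30, adjusted p = 0.14), and passed without doxorubicin 5 (log2 fold change 0.79, adjusted p = 0.0218) and with library size only (0.99, adjusted p = 0.0406). Doxorubicin 5 was also the lowest library in the second and the third RNF213-like locus. The second had 0.05 CPM there against 2.47 to 4.65 CPM in the other doxorubicin libraries, and the third had 0.70 CPM against 9.0 to 14.7 CPM. Within vehicle, vehicle 2 was the lowest at both loci. It had 11 counts against 43 and 43 on the second, and 52 against 121 and 122 on the third. Neither the second nor the third was called, nor was the ENDOV-like locus at 8.57 ± 2.49 CPM and 8.03 ± 1.29 CPM.

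The chain on chromosome 14 lies near HAND2, a transcription factor of the developing heart. Its first locus (16378835 to 16388312) had 6.0, 5.20 and 4.76 CPM in vehicle and 2.13, 1.87, 2.90, 1.76 and 1.45 CPM after doxorubicin. It was called lower (log2 fold change −1.39, SE 0.28, adjusted p = 0.0114, and 0.0591 without vehicle 1). The other two loci, 6161 and 7260 bases past the end of HAND2, had log2 fold changes of −0.17 (SE 0.26) and −0.52 (SE 0.29) and were not called. HAND2 measured 113 ± 24.1 CPM and 132 ± 11.1 CPM (adjusted p = 0.362).

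Locus and nearest annotated gene were both tested in 130 pairs. Both were called higher in 6 pairs and both lower in 2. The locus alone was called in 8 pairs as higher and in 16 as lower, the gene alone in 10 as higher and in 12 as lower, and neither in 75. Over the 8 libraries the median correlation of log2 levels within a pair was 0.34, against 0.27 for 9574 annotated rows paired with their nearest annotated row. With the group means removed the medians were 0.26 and 0.14. These values are descriptions, since the rows of a pair share libraries and depth. The median was 0.38 for loci within 5 kb on the opposite strand, 0.37 for those within 5 kb on the same strand and 0.12 for loci farther away. For annotated rows paired the same way the medians were 0.28, 0.32 and 0.20.

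The change of a locus relative to its nearest gene was called in 22 of the 130 pairs (16.9%), against 13.3% of all 9803 pairs. The ratio rose in 11 and fell in 11. The smallest p belonged to the locus by SLC12A7, where the log2 ratio changed by −2.05 (SE 0.21, adjusted p = 0.00217). For the ANKRD2-like locus against HOGA1 the log2 ratio changed by 3.88 (SE 0.48, adjusted p = 0.00582), and for the HYPK-like locus against SERINC4 by 2.01 (SE 0.29, adjusted p = 0.00739). These 3 passed whichever library was left out. The ANKRD2-like locus met the minimum total mainly through the doxorubicin libraries, so its ratio is not independent of that choice.

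For the locus by RFTN1 the log2 ratio changed by −1.68 (adjusted p = 0.011), and for the Tigger-like locus against CTDP1 by −1.42 (adjusted p = 0.0112). Both calls were lost without vehicle 1 (0.0512 each) and without vehicle 3 (0.0579 and 0.061). The locus by GNA12 and GNA12 itself rose together, and the locus rose more (log2 ratio 1.17, SE 0.25, adjusted p = 0.0198). Their correlation was 0.92 over the 8 libraries and 0.61 with the group means removed. This locus too met the minimum total mainly through the doxorubicin libraries. The number of pairs called was 3 without vehicle 1, 11 without vehicle 2, 4 without vehicle 3 and 14 without doxorubicin 2. In the same settings 1.65%, 2.65%, 1.31% and 5.81% of all pairs were called.

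**Figure D5:**
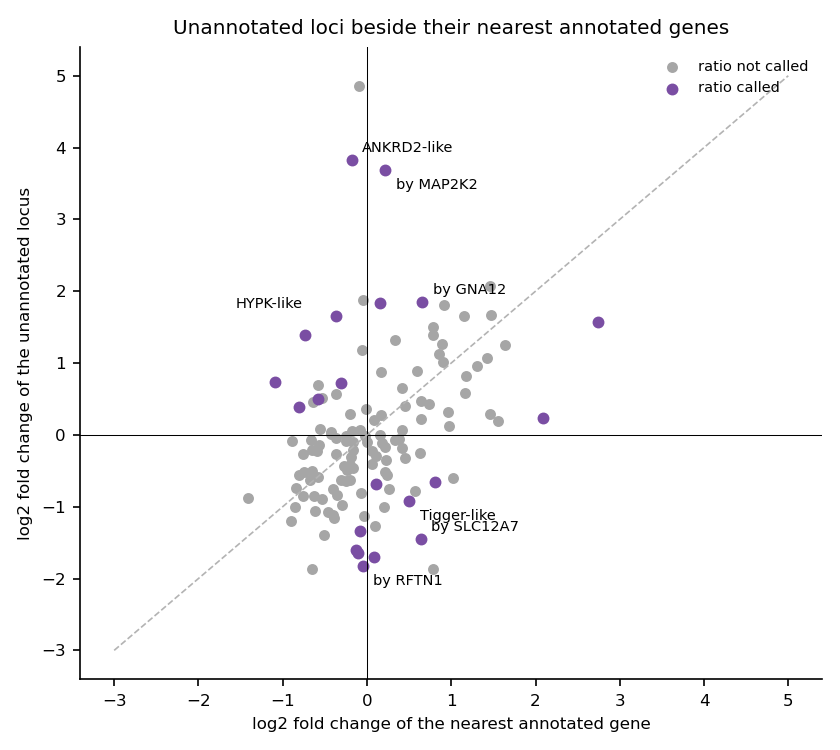
Log2 fold change of the unannotated locus (vertical axis) by that of its nearest annotated gene (horizontal axis) for 129 of the 130 pairs tested, leaving out a LINE-1-like locus with no read in vehicle. Points are pairs, the dashed line marks equal change, and pairs whose ratio was called are purple. The ANKRD2-like and HYPK-like loci lie above the line, and the Tigger-like locus and those by SLC12A7 and RFTN1 below it.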

How the data were processed

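Raw counts per row and library were deposited by the authors, per the file headers. All values in the 8 count columns are whole, and the column totals differ. The libraries used a SMARTER mRNA kit, per the labels' protocols. The aligner, counter, transcript assembler, strand setting and genome build: not given in the sources used here. Starts and ends of 30335 identifiers matched a RefSeq table of Sscrofa11.1.

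The analysis ran in R 4.3.3. A filter on low counts in edgeR 4.0.16 (filterByExpr, minimum count 10 and minimum total 15) kept 14938 rows, among them all 161 loci. TMM factors were 0.839 to 0.874 in vehicle and 1.05 to 1.18 after doxorubicin. The groups were compared on the whole table by edgeR's robust two-sided quasi-likelihood test with Benjamini-Hochberg adjustment and a threshold of 0.05. CPM use TMM-scaled library sizes, values with ± are means and SD over 3 vehicle or 5 doxorubicin libraries, and SE are on the log2 scale. The ratio of a locus to its nearest annotated row was tested with limma 3.58.1 on log2 CPM (prior count 2) over 9803 pairs. Shares were compared by exact permutation over 56 arrangements. The scripts were tested on simulated data. Figures were drawn with matplotlib 3.10.9.

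The rule for naming took the COX1-like locus and those by KCNV2 and TRIB2, the 10 loci with the highest mean CPM, the 10 higher and 10 lower with the smallest p, the 3 with the largest change in each direction, up to 15 with a described protein or family, those next to the minimum total, the 5 ratios with the smallest p, and chains of 3 or more loci within 100 kb. The members and lists were chosen with earlier results of these data known. The measures of single abundant loci beside other genes, and the share without the 3 most abundant loci, were added after the data were seen. Alternatives were other scaling (RLE, library size only, TMM computed without mitochondrial, haemoglobin and the 20 most abundant rows), other filters (none, or CPM above 1 in 3 libraries or more), DESeq2 1.42.0, limma voom with quality weights, a block for the replicate number, prior counts of 0.5 and 5 for the ratio, other denominators for the shares, and leaving out each library, which for the added measures was chosen after the data were seen. Within each group every pair of libraries differed beyond sampling noise, and all 8 were kept.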

Additional observations from a re-analysis of the deposited data

Results flagged for a closer look

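Of 51 measures looked at over the 5 doxorubicin libraries, 5 had a library far from the rest, by its gap to the nearest other library over the range. Chance alone flags about 1 in 20 such measures. The NONO-like locus stood at 135.8 CPM in doxorubicin 5, against 108 to 114 CPM in the other doxorubicin libraries. The LINE-1-like locus of chromosome 6 stood at 7.75 CPM in doxorubicin 5, against 0 to 1.17 CPM. The last locus of the chromosome 14 chain, LINE-1-like and near HAND2, stood at 10.3 CPM in doxorubicin 2, against 5.02 to 6.44 CPM. Counts on the COX1-like locus per 100 counts on COX1 were 20.5 in doxorubicin 5, against 31.9 to 35.9. The share of all counts on the loci other than the 3 most abundant was 0.204% in doxorubicin 3, against 0.175% to 0.179%. Over all 161 loci, 14 had a doxorubicin library far from the rest, and in 11 of the 14 it was doxorubicin 5.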

How the results depend on the processing

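The count of loci called higher (18) was 38 with library size only, 30 with DESeq2 and 40 with limma voom, and 7 to 23 with a library left out. The count called lower (25) was 15 with library size only and 49 with limma voom, and 8 to 33 with a library left out. Calls over all rows tested (3714) were 8051 with limma voom and 649 to 4737 with a library left out. The difference in the share of all counts ran from −1.14 to −0.80 percentage points with a library left out (exact permutation p 0.0571 to 0.0952, the smallest those designs allow). The count of changed ratios (22) ran from 3 to 26 with a library left out. Counts on the TAR1-like locus per 100 counts on RN18S differed between the groups by −22.8 to 17.2 with a library left out, an alternative chosen after seeing the data (−22.8 without vehicle 3, −3.33 without doxorubicin 3 and −14.9 without doxorubicin 5). The cause of these moves was not tested.

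With the replicate number as a block, 20 loci were higher and 26 lower, and 36 of the 43 calls were shared. The block gave 19 changed ratios. Deviations of libraries with the same number correlated at 0.0425, 0.0020 and −0.0031, so no pairing by number was seen. With so few values a pairing could be missed. Among named loci the block ended the call of the COX1-like locus (adjusted p = 0.0584) and brought the locus by FITM2 (0.0271) past the threshold.

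The sign turned in 9 named loci, none of them called. With library size only the log2 fold change was 0.35 for the histocompatibility-like locus, 0.36 for the locus by IMPAD1, 0.29 for the RNF31-like, 0.0045 for the ZFP28-like and 0.26 for the ENDOV-like locus, and 0.18 for the second locus of the chromosome 14 chain. With limma voom it was 0.069 for the RNF31-like locus, 0.16 for the chromosome 10 locus next to the minimum total, 0.24 for the ENDOV-like locus and 0.11 for the second locus of the chromosome 14 chain. With the replicate block it was −0.22 for the TAR1-like, 0.14 for the histocompatibility-like and 0.0060 for the RNF31-like locus, and 0.0061 for the locus by IMPAD1. For the locus by IMPAD1 it was also 0.0026 with RLE factors, 0.0065 with TMM computed without the abundant rows and 0.0027 with DESeq2. With a library left out the ranges were −0.15 to 0.087 for the histocompatibility-like locus, −0.11 to 0.054 for the locus by IMPAD1, −0.13 to 0.046 for the RNF31-like, −0.86 to 0.047 for the chromosome 10, −0.29 to 0.13 for the ENDOV-like and −0.19 to 0.54 for the second RNF213-like locus.

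Loci next to the minimum total have few counts per library, so a change that misses the threshold there is not shown to be absent.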
